A study of Saccharomyces cerevisiae with 6 samples.

Results

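The 40 genes described here encode factors that build the small (40S) subunit of the ribosome in the budding yeast *Saccharomyces cerevisiae*, most of them parts of the small subunit processome. They were taken by name from the 6400 named genes of a count table, all 40 were found, and all 40 passed the filter on low counts. The series is about adaptation to methanol as a carbon source, and sets an evolved strain, CX01F, beside its parent, CX01. Each strain has 3 libraries, labelled as biological replicates. Both strains carry one genotype label. It lists P. Paox1-SKL with P. Pdas1-skl and P. pDAK, then B. mMDH3-skl together with B. mACT1-skl, followed by P. pPYC and by P. sXR, P. sXDH and also P. sXK. It further names PEX5, the deletions ∆PEX31 and ∆PEX32, and S.c MDH2, S. cMDH3 and S. Cnde1. The labels give no genetic difference between the strains and do not say whether CX01F is 1 clone. Cells of both strains were grown overnight in rich YPD medium, moved to defined Delft medium for 16 h and then to Delft medium with 1% methanol in place of glucose, in shake flasks at 30 °C and 200 rpm, and were collected near an OD600 of 1.0.

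The processome is a large particle of proteins and RNA that forms in the nucleolus on the nascent ribosomal RNA precursor. Its U3 small nucleolar RNA pairs with the precursor, and the complexes UtpA, UtpB, UtpC and Mpp10 join in order and hold the RNA while it is folded, chemically modified and cut to free the precursor of the 40S subunit. In budding yeast the genes for these factors belong to the ribosome biogenesis regulon, whose transcription follows nutrients and growth through the TORC1 and PKA pathways. Many promoters of that regulon hold a PAC element, bound by the repressors Dot6 and Tod6, and an RRPE element, bound by the repressor Stb3.

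These upstream elements were looked for in the 40 genes, because most of the genes changed in the same direction. The 250 bases before each start codon were read from RefSeq R64, the S288C reference, by gene name. The build behind the counts is not given in the sources used here, so the stretches show the reference and not the sequence of CX01 or CX01F, and no positions on chromosomes are printed. PAC was searched as GCGATGAG and RRPE as AAAAATTTT, each on both strands, and an unbroken run of A and T that matches on both strands was counted as overlapping matches. For the genes shown, the printed stretch runs from 250 to 51 bases before the start codon on the gene's own strand. Capitals mark PAC and RRPE. The first 4 are the genes with the largest rise among those holding both elements, and the last 2, UTP23 and UTP30, are the only genes of the 40 called lower in CX01F.

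UTP5: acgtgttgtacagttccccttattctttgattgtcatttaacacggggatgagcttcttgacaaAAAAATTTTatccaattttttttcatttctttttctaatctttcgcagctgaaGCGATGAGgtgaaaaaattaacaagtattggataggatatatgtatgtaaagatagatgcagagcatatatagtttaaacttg

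UTP10: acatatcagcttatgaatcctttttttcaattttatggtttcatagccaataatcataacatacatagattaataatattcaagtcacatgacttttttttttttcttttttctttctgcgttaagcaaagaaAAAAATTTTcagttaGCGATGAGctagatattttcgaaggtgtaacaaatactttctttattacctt

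UTP21: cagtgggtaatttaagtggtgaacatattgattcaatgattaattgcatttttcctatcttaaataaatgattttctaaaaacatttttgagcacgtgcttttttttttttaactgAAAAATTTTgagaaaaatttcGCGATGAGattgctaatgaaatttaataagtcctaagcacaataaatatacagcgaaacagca

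KRR1: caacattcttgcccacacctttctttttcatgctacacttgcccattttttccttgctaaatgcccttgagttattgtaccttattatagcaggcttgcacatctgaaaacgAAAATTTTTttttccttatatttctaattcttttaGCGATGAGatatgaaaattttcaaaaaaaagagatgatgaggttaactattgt

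UTP23: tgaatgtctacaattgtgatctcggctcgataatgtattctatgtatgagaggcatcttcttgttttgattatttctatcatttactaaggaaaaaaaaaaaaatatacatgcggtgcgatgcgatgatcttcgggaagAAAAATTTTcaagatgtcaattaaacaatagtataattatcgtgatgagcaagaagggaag

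UTP30: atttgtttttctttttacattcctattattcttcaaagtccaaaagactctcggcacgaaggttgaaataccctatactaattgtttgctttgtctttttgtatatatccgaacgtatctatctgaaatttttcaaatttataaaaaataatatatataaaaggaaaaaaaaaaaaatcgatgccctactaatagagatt

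In UTP10 and UTP21 the RRPE letters stand just before the PAC letters, 6 and 12 bases apart, and in UTP5 and KRR1 the gap is 44 and 26 bases. UTP23 holds RRPE letters without the full PAC letters, and UTP30 holds neither. Over the 40 genes, PAC was present in 21 windows (52.5%) and RRPE in 25 (62.5%), against 3.83% and 6.74% of the 6007 windows of all nuclear coding genes. Both elements were present in 14 windows (35.0%, against 1.61% of all). The shorter PAC core GATGAG was present in 35 of the 40 windows (87.5%, against 17.0%). The PAC matches began 77 to 229 bases before the start codon, with a median of 127, and in 12 of the 14 genes with both elements the closest RRPE lay farther from the start than PAC. The windows of 7 of the 40 genes reach into the gene upstream, since their intergenic stretch is shorter than 250 bases. KRR1 is among them: its upstream neighbour FYV5 is 143 bases away, so the first part of its printed stretch lies within FYV5. A match is a description of these letters and not a bound site.

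**Figure D1:**
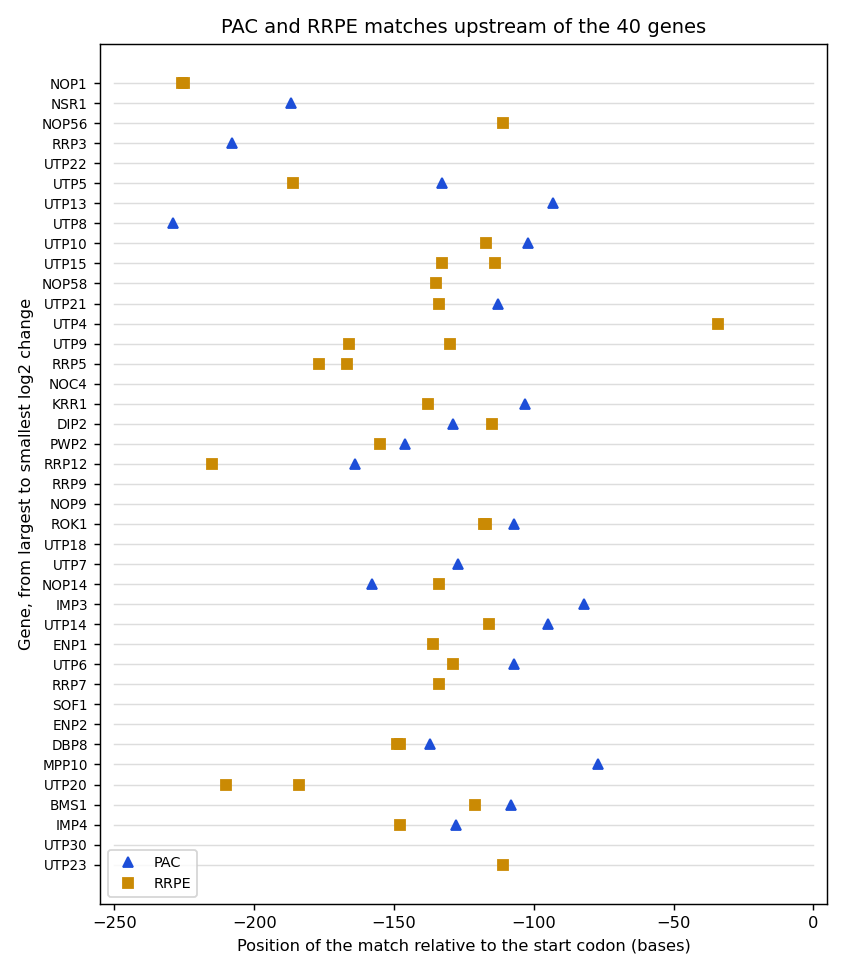
Each line is the 250 bases before the start codon of 1 gene, from the largest log2 change in CX01F (NOP1, top) to the smallest (UTP23, bottom), with a mark at the first base of each PAC or RRPE match. In 12 of the 14 genes with both elements RRPE lies to the left of PAC, and genes without any mark occur from the upper part of the order (UTP22) to the lower end (UTP30). The shorter PAC core is not marked.

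Most of the 40 genes were more abundant in the evolved strain. By edgeR's quasi-likelihood test, 37 were higher in CX01F at a Benjamini-Hochberg adjusted p under 0.05, 2 were lower and 1, IMP4, was not called. Of all 6129 tested genes 45.5% were called higher and 45.9% lower, 91.4% in either direction, so a call by itself was common in this comparison. A call together with a rise of at least 2-fold was made for 16 of the 40 genes, against 16.1% of all tested genes. The median log2 change of the 40 was 0.81, with the middle part from 0.44 to 1.35, and that of all tested genes was -0.00199. All 3 CX01F libraries lay above all 3 CX01 libraries for 37 genes, against 45.8% of all tested genes. The strains did not overlap for 39 of the 40, against 91.9% of all. The genes and their lists were chosen with earlier results of these data known, and the counts are descriptions. A difference of 3 against 3 libraries cannot give an exact permutation p below 0.1, so p-values are those of the fit across all genes.

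Levels of single genes are given in CPM, counts scaled to a common library size after TMM scaling. Together the 40 genes took 0.353%, 0.354% and 0.326% of all counts in replicates 1, 2 and 3 of CX01 and 0.571%, 0.568% and 0.570% in the CX01F libraries, 1.65-fold more on average. These shares are scaled by library total alone. With TMM scaling the summed CPM of the 40 genes was 1.91-fold higher in CX01F on average. Log2 changes rest on TMM scaling, and scaling by library size alone moves the log2 change of all tested genes by a median of -0.207. The 3 CX01F libraries were close to one another: the coefficient of variation (CV) of the 40 genes had a median of 1.75% in CX01F and 4.43% in CX01. CX01 replicate 3 was the lowest CX01 library for 34 of the 40 genes, and without it 37 genes were still called higher and 14 rose at least 2-fold. Of all 6143 genes tested without that library, 2794 were called higher.

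**Figure D2:**
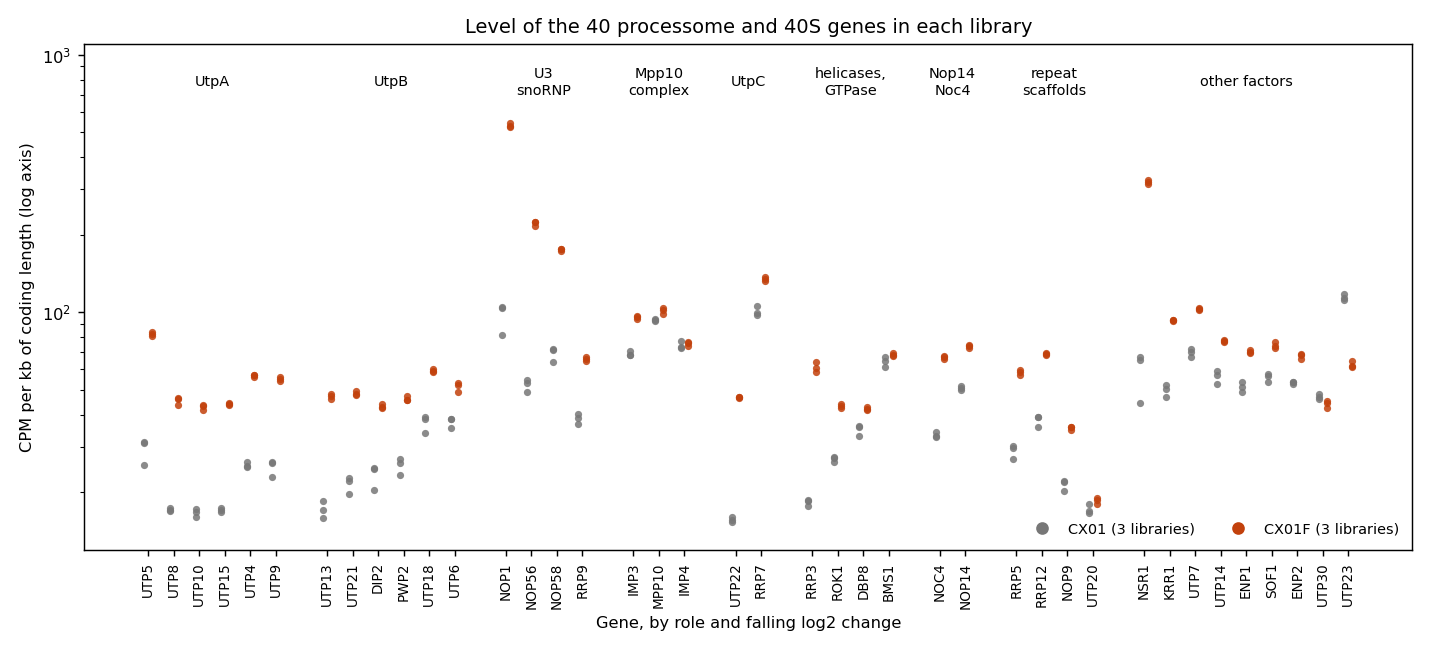
Points are levels in CPM, counts scaled to a common library size with TMM factors, per kilobase of coding length, on a log axis, for each of the 40 genes in each of 3 CX01 and 3 CX01F libraries, grouped by role. NOP1 and NSR1 reach the highest CX01F levels, 532 and 320 CPM per kb on average, and UTP23 is the gene with the clearest lower level in CX01F.

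The UtpA complex binds the precursor RNA first and in budding yeast is also needed for its full transcription. All 6 of its subunits on the list, UTP4, UTP5, UTP8, UTP9, UTP10 and UTP15, rose at least 2-fold, with log2 changes from 1.14 to 1.49 and no overlap between the strains. Of all tested genes, 16.1% were called with such a rise and 91.9% showed no overlap. UTP10, the largest subunit, stood at 88.9, 91.3 and 85.3 CPM in CX01 and 230.4, 232 and 221 CPM in CX01F (log2 1.36, SE 0.0311, edgeR adjusted p = 8.12e-15). UTP5 stood at 60.1, 60.5 and 49.4 CPM in CX01 and 161, 159 and 157 CPM in CX01F (log2 1.49, SE 0.0564, adjusted p = 2.85e-12). UTP15 had 25.9, 26.5 and 26.9 CPM against 67.8, 68.4 and 67.3 CPM (log2 1.36, SE 0.0324). The changes of these 6 subunits lay within a narrower range than those in UtpB or among the U3 proteins. A further UtpA subunit, NAN1, is outside the list and rose less. It had 87.8, 93.0 and 85.1 CPM in CX01 and 130, 129 and 130 CPM in CX01F (log2 0.55, SE 0.0322). With NAN1 the UtpA changes ran from 0.55 to 1.49, against 0.45 to 1.46 in UtpB. Per kilobase of coding length, UTP8, UTP10 and UTP15 were at 17.1, 16.7 and 17.1 CPM in CX01 and at 45.4, 42.9 and 44.0 in CX01F. UTP5 was the highest of the 6 in both strains at 29.3 and 82.3 CPM per kb.

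UtpB joins next and binds the 5′ part of the precursor together with U3. Its 6 subunits, PWP2, DIP2, UTP6, UTP13, UTP18 and UTP21, all rose, 2 of them at least 2-fold, with log2 changes from 0.45 to 1.46. Of all tested genes 45.5% were called higher, and 16.1% were called with a rise of at least 2-fold. UTP13 had 41.9, 45.3 and 39.2 CPM in CX01 and 116, 113 and 118 CPM in CX01F (log2 1.46, SE 0.0431, adjusted p = 1.56e-13). At the other end UTP6 had 50.9, 51.2 and 47.0 CPM in CX01 and 70.2, 65.0 and 68.9 CPM in CX01F (log2 0.45, SE 0.0399, adjusted p = 5.66e-08). The strains did not overlap for either gene, as for 91.9% of all tested genes. In order of their CX01 level per kilobase, from UTP13 to UTP6, the log2 changes grew smaller at each step, although both measures share the CX01 libraries. The levels lay closer together in CX01F: the highest subunit was 2.10 to 2.29 times the lowest in the CX01 libraries and 1.34 to 1.399 times in the CX01F libraries. Among the 6 UtpA subunits of the list this ratio was 1.59 to 1.86 in CX01 and 1.88 to 1.95 in CX01F. The UtpA ratio leaves out NAN1, whose level per kilobase was not worked out. It therefore does not describe the whole UtpA complex, and a difference from UtpB was not tested.

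The U3 particle proteins had the highest median log2 change of the 9 roles, 1.71, and included the largest single change. NOP1, fibrillarin, the methyltransferase of box C/D particles, stood at 102, 103 and 80.3 CPM in CX01 and 517, 521 and 532 CPM in CX01F (5.5-fold, log2 2.46, SE 0.0689, adjusted p = 8.45e-14). NOP56, a scaffold protein of the same particles, stood at 82.7, 80.7 and 74.5 CPM against 339, 326 and 339 CPM (4.22-fold, log2 2.08, SE 0.0366). Its paralogue NOP58 had 110.45, 109.7 and 98.3 CPM against 266, 270 and 271 CPM (log2 1.34, SE 0.0382). Each of these 3 genes was clear of overlap, with every CX01F library at more than the highest CX01 library. Libraries of the strains did not overlap for 91.9% of all tested genes either. RRP9, which recognises U3 itself and is not part of other box C/D particles, had 69.6, 66.8 and 63.4 CPM against 114, 115 and 111 CPM (log2 0.76, SE 0.0341), the smallest change of the 4. Per kilobase, NOP1 was 2.21 to 2.70 times the lowest of the 4 in CX01 and 7.92 to 8.39 times in CX01F.

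The Mpp10 complex, which helps U3 pair with the precursor, moved less than the complexes above. IMP3 rose by a log2 of 0.47, from 39.2, 37.8 and 37.6 CPM to 53.2, 52.1 and 52.8 CPM (SE 0.0328, adjusted p = 4.27e-09). MPP10 was at 165, 168 and 166 CPM in CX01 and 181, 176 and 184 CPM in CX01F (log2 0.12, SE 0.0263, adjusted p = 0.000627). IMP4 was at 67.5, 63.3 and 64.05 CPM in CX01 and 66.4, 64.7 and 67.1 CPM in CX01F (log2 0.025, SE 0.0325, adjusted p = 0.472), with the libraries of the strains overlapping. The values of MPP10 and IMP4 turn on the scaling: by library size alone MPP10 was at -0.088 and IMP4 at -0.18. Without the genes of chromosomes XI and XV, MPP10 was at 0.0011 (adjusted p = 0.969) and IMP4 at -0.094 (adjusted p = 0.0137).

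UtpC and the enzymes were uneven. Of the 2 UtpC genes among the 40, UTP22 had 58.1, 57.2 and 59.6 CPM in CX01 and 173, 174 and 174 CPM in CX01F (2.98-fold, log2 1.58, SE 0.0269, adjusted p = 3.65e-16). Its partner RRP7 had 94.5, 88.8 and 87.5 CPM against 123, 118 and 120 CPM, a smaller rise (log2 0.42, SE 0.0323). The pair was 6.10 to 6.76-fold apart per kilobase in CX01, with RRP7 higher, and 2.82 to 2.95-fold apart in CX01F. Further UtpC parts are outside the 40. Of these, CKA1 and CKB1 rose by a log2 of 0.41 and 0.49. CKA2 was not called (log2 0.0077), and RRP36 and CKB2 fell (-0.75 and -0.95), these 3 all on chromosome XV. Among the DEAD-box RNA helicases, RRP3 rose 3.35-fold, from 27.8, 28.1 and 26.6 CPM to 91.7, 88.3 and 96.4 CPM (log2 1.75, SE 0.0387, adjusted p = 5.89e-15). ROK1, which frees the small nucleolar RNA snR30, rose by a log2 of 0.68 (SE 0.0308) and DBP8 by 0.27 (SE 0.0382, adjusted p = 1.14e-05). DBP8 was no longer called with library size alone (log2 0.061, adjusted p = 0.153). BMS1, the GTPase of the processome, was at 229, 238 and 217 CPM in CX01 and 243, 247 and 241 CPM in CX01F, a log2 change of 0.096 (SE 0.0318, adjusted p = 0.0112) that turned to -0.11 with library size alone and to -0.023 without chromosomes XI and XV.

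The large repeat proteins and the Nop14 complex rose, with 1 exception in size. RRP5, which acts in making both ribosomal subunits, had 154, 157 and 140.2 CPM against 303, 311 and 297 CPM (log2 1.01, SE 0.0381, adjusted p = 2.55e-12). RRP12, an export factor, rose by a log2 of 0.85 (SE 0.034) and NOP9, a Pumilio-like RNA binding protein, by 0.73 (SE 0.037). UTP20, the longest gene of the 40, was at 127, 135 and 125 CPM in CX01 and 135, 143 and 139 CPM in CX01F, a log2 change of 0.11 (SE 0.033, adjusted p = 0.00546) that was -0.096 with library size alone and -0.0069 without chromosomes XI and XV. NOC4 and its partner NOP14 rose by 1.00 and 0.53 on the log2 scale, and their levels per kilobase, 1.47 to 1.57-fold apart in CX01, were 1.08 to 1.12-fold apart in CX01F.

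Of the other factors 7 rose and 2 fell by the edgeR call, which was made for 45.5% (higher) and 45.9% (lower) of all tested genes. NSR1, the yeast counterpart of nucleolin, stood at 81.2, 83.8 and 55.6 CPM in CX01 and 397, 393 and 406 CPM in CX01F (5.42-fold, log2 2.44, SE 0.104, adjusted p = 1.12e-11). Its CX01 libraries were the most scattered of the 40 genes (CV 21.2%), with replicate 3 low, and the log2 change without that library was 2.27. KRR1, a KH-domain RNA binding protein, rose by a log2 of 0.90 (SE 0.0361) and had 88.2, 88.8 and 88.9 CPM in CX01F against 49.7, 48.1 and 44.8 CPM in CX01. The WD-repeat proteins UTP7, SOF1 and ENP2 rose by 0.56, 0.41 and 0.35, UTP14, which activates the helicase Ecm16, by 0.46, and ENP1, which stays on the particle until export, by 0.45. These 5 genes had CX01F levels of 67.8 to 103 CPM per kb. UTP23, which acts with snR30, fell 1.82-fold, from 90.3, 86.5 and 85.1 CPM to 49.6, 47.3 and 47.0 CPM (log2 -0.86, SE 0.0338, adjusted p = 4.10e-12). It was the most abundant of the 40 per kilobase in CX01 (114 CPM per kb) and in position 21 in CX01F (62.7 CPM per kb). UTP30, an L1-domain protein, had 38.8, 37.9 and 39.7 CPM in CX01 and 35.1, 36.8 and 37.4 CPM in CX01F (log2 -0.090, SE 0.0379, adjusted p = 0.0364). The strains did not overlap for UTP30, but its call was lost without CX01 replicate 1 (adjusted p = 0.0665) or 3 (0.0926), without CX01F replicate 1 (0.17) or 2 (0.0576), and with DESeq2 (0.0628).

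**Figure D3:**
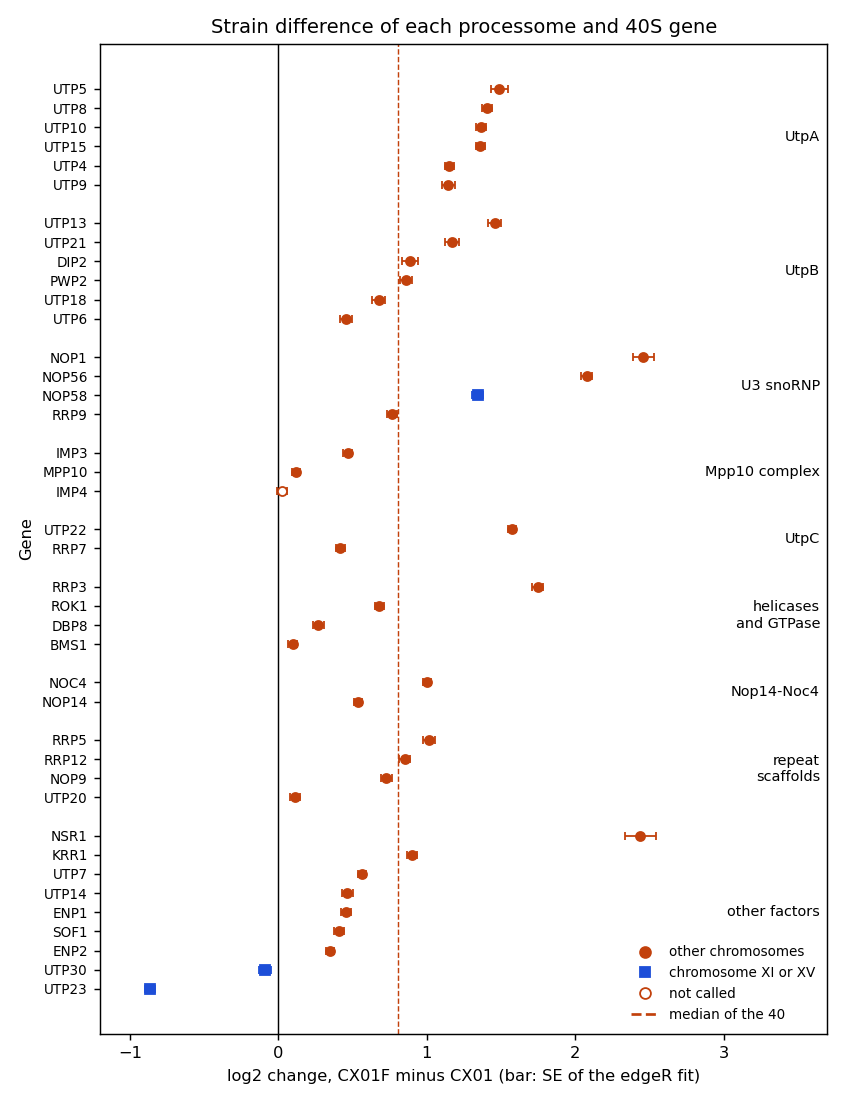
Log2 change of each of the 40 genes, CX01F minus CX01, with the SE of the edgeR fit as the bar, grouped by role. The 6 UtpA subunits among the 40 lie close together between 1.14 and 1.49, and the Mpp10 complex lies between 0.025 and 0.47. UTP23 and UTP30, both on chromosome XI or XV, lie below 0.

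Both genes that fell are on chromosomes whose genes were lower as a whole. UTP23 and NOP58 are on chromosome XV and UTP30 is on XI, by their R64 annotation. The 873 tested genes of these chromosomes had a median log2 change of -0.86, which is the value of UTP23, and 698 of them were called lower, while the 5114 tested genes placed on other chromosomes had a median of 0.11. NOP58 rose against that background. Of the 37 genes elsewhere, 36 were higher and 0 lower by edgeR, with a median of 0.85, against 51.4% higher of the 5114. At an unadjusted p under 0.05 and with DESeq2 the count of lower genes among the 37 was also 0. It was 4 with library size alone (MPP10, IMP4, BMS1 and UTP20), a setting in which 3407 of all 6129 tested genes were lower. Scaled without the genes of XI and XV, 33 of the 37 were higher and 1, IMP4, was lower, with a median of 0.73. Of the 5257 genes tested in that setting 2332 were higher and 2429 lower. The part of the chromosomes in these changes was not tested.

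Among factors of 40S biogenesis outside the 40 some rose and some fell. Of 36 other processome factors, 24 were higher (66.7%, against 45.5% of all tested genes) and 11 lower in CX01F, with a median log2 change of 0.44. SNU13, the box C/D core protein that binds the U3 RNA directly, rose most (31.2, 33.4 and 27.0 CPM against 135, 138 and 143 CPM, log2 2.18), followed by the helicase HAS1 (log2 1.85). SNU13 stands with NOP1 and NOP56 in the size of its rise. CKB2, a casein kinase 2 subunit on XV, and UTP11, on XI, fell most (log2 -0.95 and -0.91). The 8 factors on XI or XV held 7 of the 11 falls and none of the rises, and of the 28 elsewhere 24 rose and 4 fell. Late 40S factors, which act after the processome, had 7 higher and 6 lower of 13 (53.8% higher, against 45.5% of all tested genes). By log2 change DIM1, an rRNA dimethylase, was at 1.06, TSR2 at 0.84, TSR3 at -1.02 and TSR4 at -1.31. All 5 late factors on XI or XV were lower, against 698 of the 873 tested genes there, and 7 of 8 elsewhere were higher, against 51.4% of all tested genes elsewhere.

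Of 66 factors of the large (60S) subunit, 51 were higher (77.3%, against 92.5% of the 40 and 45.5% of all tested genes) and 9 lower. On chromosomes XI and XV, 2 of 12 were higher and 7 lower. Elsewhere 49 of 54 were higher (90.7%), with a median of 0.76. For the 40-gene list elsewhere it was 36 of 37 (97.3%), with a median of 0.85, and for all tested genes elsewhere 51.4%. At least 2-fold rises were 18 (27.3%, against 16 of the 40 and 16.1% of all), and the median was 0.69. RLP24 (log2 1.88) and NOG2 (1.80) rose most, and RRP14, on XI (-1.12), and NOP16 (-0.73) fell most. PAC and RRPE were present in 56.1% and 65.2% of their windows. Genes of the ribosomal proteins of the small subunit rose further, with 49 of 56 at least 2-fold higher and a median of 2.10, and their windows held PAC in 0 of 56 and RRPE in 2. The differences between these lists were not tested.

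**Figure D4:**
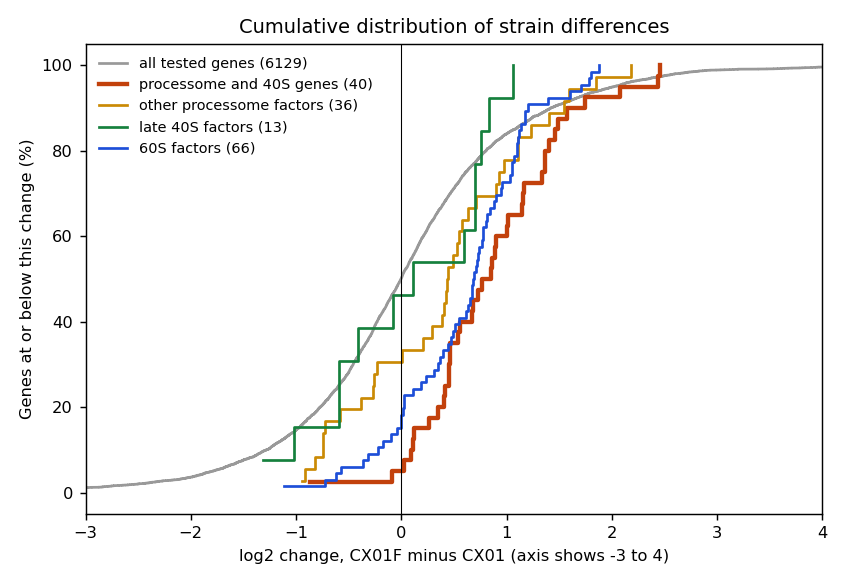
Share of genes at or below a given log2 change, CX01F minus CX01, for all tested genes, the 40 processome and 40S genes, and the lists of other processome, late 40S and 60S factors. The curve of the 40 genes crosses its middle at 0.81 and that of all tested genes close to 0.

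Genes with and without the full PAC and RRPE letters were among those that rose. The 14 genes with both elements had a median log2 change of 0.76, the 7 with PAC alone 1.41, the 11 with RRPE alone 1.14 and the 8 with neither 0.70. Of these 8, UTP18, RRP9, NOC4, NOP9, SOF1 and ENP2 held the shorter PAC core GATGAG. UTP22, which rose, and UTP30, which fell, held neither that core nor RRPE. Among tested genes outside the 40, 51 of 81 with both elements were higher, with a median of 0.51, against 44.7% of the 5312 with neither, with a median of -0.019. These are descriptions of letters and levels, with no test between them.

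The genes for the factors known to act through these elements did not move in one direction. STB3, which binds RRPE, fell 2.38-fold (273, 281 and 270.1 CPM in CX01, 117, 116 and 114 CPM in CX01F, log2 -1.25, adjusted p = 3.43e-15). DOT6, which binds PAC, fell by 0.68 on the log2 scale, while its paralogue TOD6 rose 2.37-fold (62.7, 64.8 and 61.4 CPM in CX01, 149, 150.4 and 148 CPM in CX01F, log2 1.25, adjusted p = 7.55e-15). SFP1, an activator of the regulon, fell by 0.45. For each of these 4 genes the libraries of the strains did not overlap, as for 91.9% of all tested genes.

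Small nucleolar RNAs of the processome are also listed in the table, but the library kit and any size selection are not given in the sources used here. U3 is encoded by the near-identical genes snR17a and snR17b, whose reads may have been split. The row of snR17a, on XV, had 45.0, 39.1 and 44.8 CPM in CX01 and 16.1, 15.1 and 18.7 CPM in CX01F (log2 -1.36, adjusted p = 1.46e-10), and that of snR17b had 1.05 to 1.55 CPM in CX01 and 1.28 to 1.36 CPM in CX01F (log2 0.12, adjusted p = 0.523). The row of snR17a thus lay in the opposite direction to the genes of the U3 proteins. snR128 had 0.773, 0.664 and 0.68 CPM in CX01 and 4.55, 4.84 and 5.52 CPM in CX01F (log2 2.82), snR10 was at a log2 of 0.19 (adjusted p = 0.0381) with overlapping libraries, and snR30 was at 0.10 (adjusted p = 0.106).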

How the data were processed

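RNA from 3 CX01F and 3 CX01 cultures was sequenced. The table the authors deposited holds raw counts, whole numbers of reads for each gene. Tools named per the submitters' processing notes, with no role stated, are Subread 1.4.6, featureCounts, Cufflinks and TopHat2 2.0.12. The build, annotation, strand setting and treatment of multiply mapped reads are not given in the sources used here. None of the 40 genes overlaps another gene in R64. Library totals were 51537969 to 63183824 counts, and each of the 40 genes had 1439 to 31108 counts in a library. A row without a name (0.00877% to 0.044% of counts) was left out. Replicates of a strain differed by more than sampling noise.

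In R 4.3.3, edgeR 4.0.16 was run on all 6400 genes: filterByExpr (minimum count 10, minimum total 15; 6129 genes kept), TMM, glmQLFit and glmQLFTest with strain as the only term, two-sided, Benjamini-Hochberg adjustment over the tested genes, and a call at an adjusted p under 0.05. The script was also run on simulated counts. CPM values use TMM-scaled library sizes. Log2 changes are CX01F minus CX01, and the SE is the change divided by the square root of F. The p-values measure the spread between these cultures, and a batch that coincided with strain cannot be told apart from it. Names were matched to RefSeq R64 for 6164 of 6400 genes. The 40 genes, their roles, the other lists and the alternatives (DESeq2 1.42.0 and limma 3.58.1 among them) were chosen with earlier results of these data known. All 40 genes are named. Of the other 40S and 60S lists the 2 called genes that rose most and the 2 that fell most are named. So are all genes of the lists of regulators and of processome RNAs. NAN1, CKA1, CKA2, CKB1, CKB2 and RRP36 are also named, as further parts of UtpA and UtpC.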

Additional observations from a re-analysis of the deposited data

How the results depend on the processing

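Of 40 genes, 37 were called higher and 2 lower, against 2787 and 2816 of all 6129 tested genes. The count of higher calls was 33 with library size only and 33 of 37 tested without chromosomes XI and XV, and 37 under each of the other alternatives: DESeq2 size factors, no low-count filter, DESeq2, limma voom, the replicate block and each library left out. The count of lower calls was 6 with library size only, 1 with DESeq2, 1 without XI and XV (IMP4, since UTP23 and UTP30 are then left out) and 1 to 2 with a library left out. Over all tested genes, library size only gave 2221 of 6129 higher and 3407 lower. Without XI and XV it was 2332 of 5257 higher and 2429 lower. The other alternatives gave 2734 to 2812 higher and 2767 to 2832 lower. The median log2 change (0.81) was 0.60 with library size only, 0.73 without XI and XV and 0.77 to 0.83 with a library left out. At least 2-fold rises (16) were 11 with library size only, 13 without XI and XV and 14 to 16 with a library left out. These settings lower all changes: without XI and XV the median shift over genes tested in both fits was -0.119. Reversed values were those of MPP10 (-0.088), IMP4 (-0.18), BMS1 (-0.11) and UTP20 (-0.096) with library size only, and of IMP4 (-0.094), BMS1 (-0.023) and UTP20 (-0.0069) without XI and XV. Over all alternatives 503 values of single genes kept direction and call, 7 reversed and 7 lost the call with the same direction. Of the reversed values, those of BMS1 and UTP20 without XI and XV were also no longer called (adjusted p = 0.499 and 0.844). Adding a replicate block to the fit left 37 genes higher and 2 lower. Same-numbered deviations correlated at -0.0049, 0.195 and 0.0224, and 1 of 3 CX01F libraries correlated best with its own number, so the numbers were not taken as pairs. Calls of MPP10, IMP4, BMS1, UTP20, DBP8 and UTP30 depend on the scaling, the tool or a single library.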
